A study of Mus musculus with 6 samples.

Results

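The 7 genes that encode the caveolins (Cav1, Cav2 and Cav3) and the cavins (Cavin1, Cavin2, Cavin3 and Cavin4) were taken by gene symbol from a table of 21959 mouse genes. They were chosen by their read counts in the comparison described here, so that comparison was in view when they were picked. All 7 symbols were found, and 6 of the genes had enough counts to be tested among 11658. Caveolae are small, flask-shaped pits of the plasma membrane that muscle cells, endothelial cells and adipocytes carry in large numbers. Caveolins are integral membrane proteins that sit in the bulb of the pit, with Cav1 and Cav2 forming mixed oligomers in most cell types and Cav3 taking the role of Cav1 in striated muscle. Cavins form the peripheral coat on the cytosolic side: Cavin1 is needed for the pit to form, Cavin2 and Cavin3 join it as partners, and Cavin4 is the muscle member, found at the sarcolemma and T-tubules. In heart muscle caveolae hold signalling proteins, buffer stretch of the membrane and take part in the response to ischemia.

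The cells carry the label HL-1, the name of a mouse atrial muscle line, with a wild-type genotype. All 6 samples went through oxygen-glucose deprivation and reoxygenation (OGD/R), a culture model of ischemia followed by reperfusion, with 4 h without oxygen or glucose and then 24 h of reoxygenation. The cells of 3 libraries had OGD/R alone. Those of the other 3 also had the plant lignan phillyrin at 50 µg/mL, 8 h ahead of OGD/R and 16 h together with it, and no library of cells given only its solvent was analysed here, so phillyrin and solvent cannot be told apart. Poly(A) RNA was sequenced to between 14761317 and 22123648 counts a library.

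Markers of the labelled cell type were close to absent. Of 10 atrial muscle markers 9 stayed below 0.5 CPM in every library (CPM is the count relative to the scaled library total) and 4 (Myh6, Sln, Actn2 and Myl3) had no count at all. Myoblast markers were present, with 8 of 10 at or above 0.5 CPM in some library, and their summed level was 1254 to 1276 CPM in OGD/R and 1188 to 1247 CPM with phillyrin. Of other cells rich in caveolae, endothelium was represented by 1.08 to 1.53 CPM summed over 10 markers in OGD/R and 0.904 to 1.46 CPM with phillyrin, with Kdr, Emcn and Tie1 at 0. Of 7 adipocyte markers Adipoq, Plin1, Lep and Cidec were at 0, and the list summed to 49.0 to 52.1 CPM in OGD/R and 65.5 to 74.5 CPM with phillyrin, nearly all of it Lpl and Pparg. The 6 smooth muscle markers summed to 444 to 469 CPM in OGD/R and 616 to 669 CPM with phillyrin, nearly all of it Acta2 and Smtn, and the 7 fibroblast markers to 2284 to 2325 and 1808 to 1960 CPM. The ranges of the myoblast, adipocyte, smooth muscle and fibroblast sums did not overlap between the groups, and their part in the results on caveolar genes was not tested. Each of these sums joins members whose fold changes differed in sign. Log2 fold changes with phillyrin ran from -1.55 to 0.23 among 7 tested myoblast markers and from -0.74 to 1.70 among 6 tested fibroblast markers. They ran from -0.18 to 0.56 among 3 tested smooth muscle markers and from -0.02 to 0.68 among 2 tested adipocyte markers. In bulk RNA, fewer cells of a type and less RNA per cell cannot be told apart.

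Transcripts of 6 coat genes were abundant in the OGD/R libraries, and that of the muscle caveolin was not detected. Levels of different genes are compared here as FPKM, which divides the count by gene length and library total. Cavin1 had the highest level, 182 ± 4.68 FPKM in OGD/R (SD, n = 3), above 98.6% of the genes tested when all 6 libraries are averaged. Cav1 came next at 88.5 ± 0.630 FPKM and Cavin4 after it at 48.9 ± 2.50 FPKM, and the library ranges of these 3 genes did not overlap. Cav2 (25.7 ± 1.13 FPKM), Cavin2 (25.5 ± 0.694 FPKM) and Cavin3 (23.5 ± 2.10 FPKM) lay close together (SD, n = 3 each). The OGD/R ranges of Cav2 and Cavin2 overlapped, as did those of Cavin2 and Cavin3, so their order was not beyond the spread of the libraries. With phillyrin the first 3 places were the same, at 169 ± 8.24 FPKM for Cavin1, 63.0 ± 0.504 for Cav1 and 36.9 ± 3.32 for Cavin4 (SD, n = 3 each). Cavin2 followed at 24.9 ± 0.880 FPKM, and Cav2, at 20.1 ± 0.444 FPKM, had the lowest mean of the 6, within the range of Cavin3 (20.4 ± 1.08 FPKM).

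Cav3, the caveolin of differentiated muscle (ENSMUSG00000062694, chromosome 6, 112436466 to 112449833, GRCm39), had 0 counts in all 6 libraries. At the 111513800 counts of the 6 libraries together, this allows up to 0.0269 CPM, counting error only. Its muscle partner among the cavins, Cavin4, was present at 9823 counts over the same libraries.

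With phillyrin Cav1, Cav2 and Cavin4 were lower, whereas Cavin1, Cavin2 and Cavin3 did not pass the threshold. In the edgeR fit over all genes (adjusted p under 0.05) 3 of the 6 tested coat genes fell and 0 rose. Over all genes 31.7% were called, 15.6% of them as lower and 16.0% as higher, each as a share of the genes tested. The median log2 fold change of the 6 was -0.23, against -0.01 over all genes tested. A call as lower with a log2 fold change of at least 0.5 in size was made for 3.11% of all genes and for 0 of these 6. The symbols had been chosen with this comparison known, so these values describe the genes, no p is given for them, and nothing is inferred from their share of calls.

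Cav1, the caveolin without which non-muscle cells form no caveolae (ENSMUSG00000007655, chromosome 6, 17306334 to 17341451, plus strand), stood at 298, 300.4 and 303 CPM in the OGD/R libraries. In the phillyrin libraries it stood at 221, 219 and 221 CPM. The 2 groups lay far apart and each spanned only a few CPM. The log2 fold change was -0.45 (SE 0.04), a change of -26.7%, which 6.24% of the tested genes matched or exceeded on the lower side.

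Cav2, the partner that needs Cav1 to leave the Golgi (ENSMUSG00000000058, chromosome 6, 17281184 to 17289114, plus strand), stood at 80.5, 84.5 and 88.3 CPM in OGD/R. With phillyrin it stood at 68.0, 69.3 and 67.3 CPM. Every phillyrin library lay below every OGD/R library, with a log2 fold change of -0.31 (SE 0.05), a change of -19.2%. The calls for Cav1 and Cav2 held in all 13 alternatives run, with log2 fold changes from -0.49 to -0.44 for Cav1 and from -0.35 to -0.27 for Cav2.

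**Figure D1:**
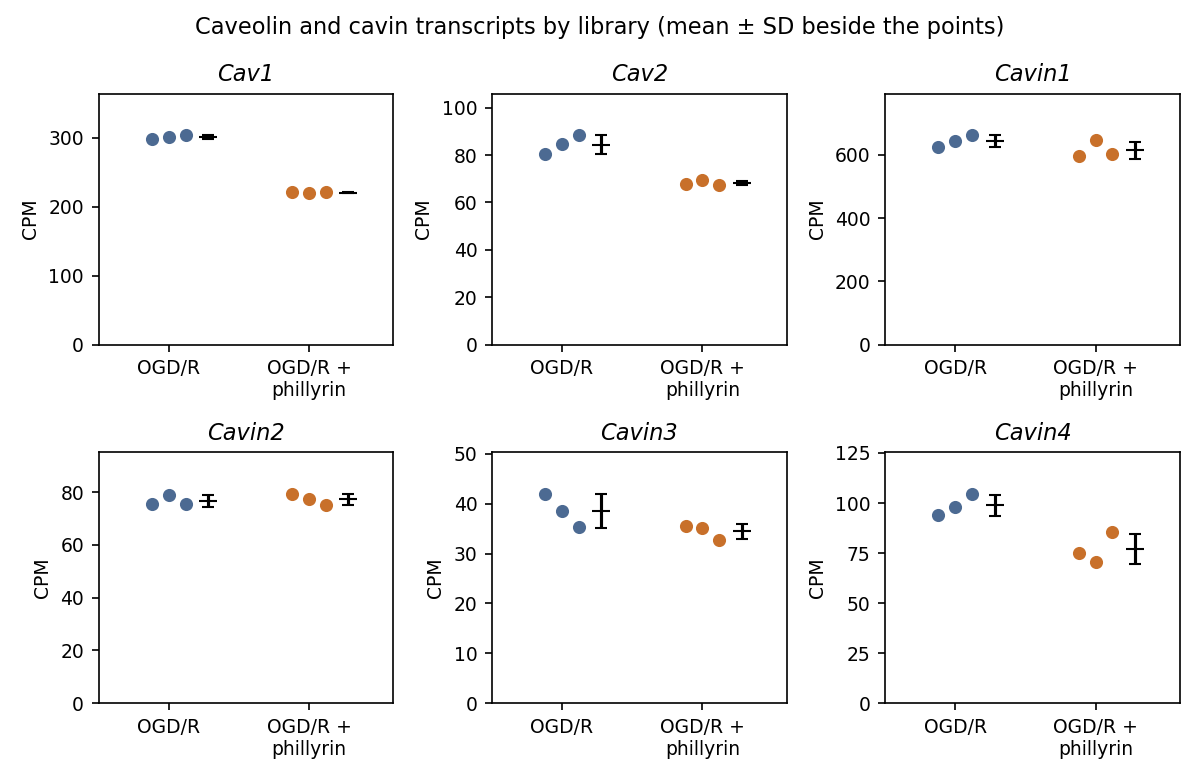
CPM of the 6 detected coat genes in each library, OGD/R in blue and OGD/R with phillyrin in orange, with the mean ± SD (n = 3) beside the points and axes that start at 0. Cav1, Cav2 and Cavin4 are lower in all 3 phillyrin libraries, while the groups overlap for Cavin1, Cavin2 and Cavin3.

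Among the cavins, Cavin4 (also known as MURC; ENSMUSG00000028348, chromosome 4, 48663514 to 48673502, plus strand) stood at 94.1, 98.2 and 105 CPM in OGD/R. With phillyrin it stood at 75.0, 70.7 and 85.6 CPM. The groups did not overlap, but phillyrin replicate 3 lay nearer to OGD/R than the other two. The log2 fold change was -0.37 (SE 0.06), a change of -22.4%, and lay between -0.44 and -0.30 over the alternatives, in all 13 of which the gene was called. Groups without overlap, in either direction, were found for 43.1% of all genes tested, and for 21.6% with phillyrin as the lower group. Among the coat genes they were found for 3 of 6.

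Cavin1 (PTRF, first described as a release factor of RNA polymerase I; ENSMUSG00000004044, chromosome 11, 100847559 to 100861713, minus strand) stood at 626, 645 and 661 CPM in OGD/R. With phillyrin it stood at 595, 646 and 602 CPM. Phillyrin replicate 2 lay within the OGD/R range and the other two below it. The log2 fold change was -0.07 (SE 0.04). Without phillyrin replicate 2 the value was -0.10 and the gene was called lower.

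Cavin2 (SDPR, a phosphatidylserine-binding protein that shapes the pit; ENSMUSG00000045954, chromosome 1, 51328285 to 51342119, plus strand) stood at 75.5, 79.1 and 75.3 CPM in OGD/R and at 79.3, 77.3 and 75.2 CPM with phillyrin. The groups covered nearly the same range. The log2 fold change was 0.01 (SE 0.05), and its sign turned when libraries were scaled by size only (-0.03) and without OGD/R replicate 3 (-0.00054).

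Cavin3 (PRKCDBP or SRBC, a binding partner of protein kinase C delta; ENSMUSG00000037060, chromosome 7, 105129290 to 105131507, minus strand) had the fewest counts of the 6, 4091 in all. It stood at 42.0, 38.5 and 35.3 CPM in OGD/R and at 35.6, 35.1 and 32.8 CPM with phillyrin. The groups overlapped at OGD/R replicate 3, the lowest of its group. The log2 fold change was -0.16 (SE 0.07). Without OGD/R replicate 3 the value was -0.22 and the gene was called lower. Scaled by library size only, Cavin1 (-0.11) and Cavin3 (-0.20) were called as well, which brought the lower coat genes to 5 of 6.

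Cavin transcripts exceeded caveolin transcripts by a larger factor with phillyrin than in OGD/R alone. Summed over the family, caveolin transcripts stood at 112, 114 and 116 FPKM in OGD/R and at 83.6, 83.6 and 82.1 FPKM with phillyrin, a change of -27.2% between the means. Summed cavin transcripts stood at 275, 281 and 285 FPKM in OGD/R and at 247, 258 and 247 FPKM with phillyrin, a change of -10.4%. FPKM uses the unscaled library total. The 2 percentages are therefore not on the scale of the fold changes above, such as -26.7% for Cav1 and -19.2% for Cav2. The ratio of summed cavins to summed caveolins was 2.44, 2.46 and 2.46 in OGD/R and 2.96, 3.09 and 3.01 with phillyrin. Cavin1 over Cav1 went from 2.06 ± 0.0384 to 2.68 ± 0.129 (SD, n = 3 each). These ratios did not overlap between the groups.

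Within the caveolins the ratio of Cav1 to Cav2 was 3.58, 3.44 and 3.32 in OGD/R and 3.14, 3.07 and 3.18 with phillyrin. This ratio did not overlap between the groups either, and Cav1 made up 77.5% ± 0.645 of summed caveolin FPKM in OGD/R and 75.8% ± 0.325 with phillyrin (SD, n = 3 each). Within the cavins Cavin4 made up 17.4% ± 0.592 in OGD/R and 14.7% ± 1.62 with phillyrin (SD, n = 3 each). Cavin1 made up 65.0% ± 0.518 and 67.2% ± 1.59 of the same sum (SD, n = 3 each). Ratios within a library do not depend on how libraries are scaled. They use the same counts as the fold changes above and are no separate evidence.

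**Figure D2:**
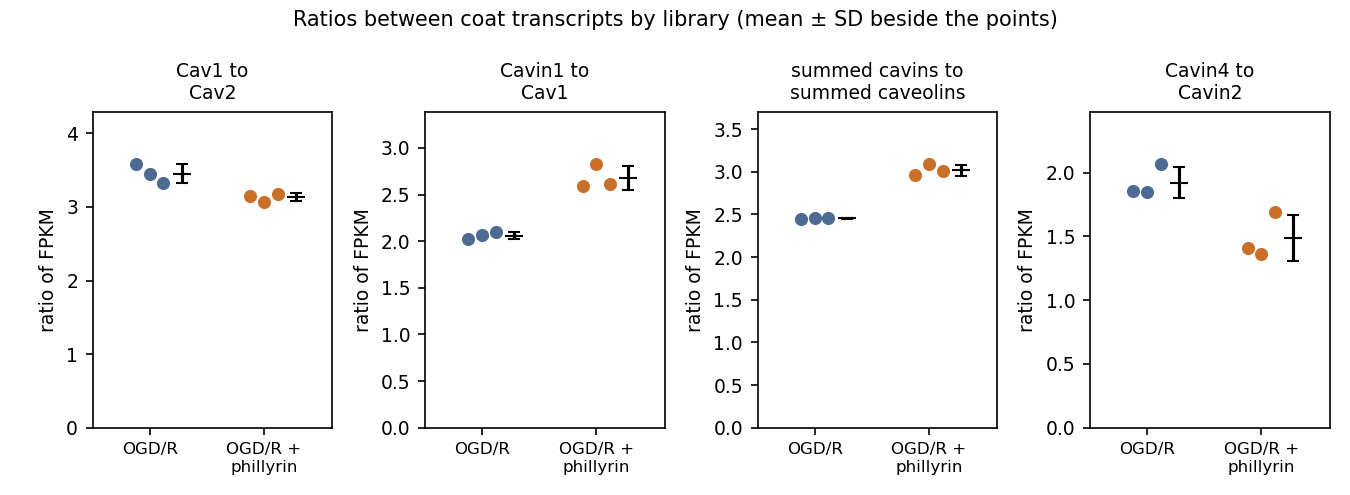
Ratios of FPKM between coat transcripts in each library, OGD/R in blue and OGD/R with phillyrin in orange, with the mean ± SD (n = 3) beside the points and axes that start at 0. Cavin1 to Cav1 and summed cavins to summed caveolins are higher in all 3 phillyrin libraries, and Cav1 to Cav2 and Cavin4 to Cavin2 are lower.

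The sequence just before the start of transcription is shown for the 3 genes that fell and for Cavin1, the most abundant coat gene, which was not called. The RefSeq promoter table (GRCm38.p6) held 6 of the 7 coat genes, and each run below gives the 250 bases before the first listed start, 5′ to 3′ on the strand of the gene. Capitals mark matches, on either strand, to the GC box GGGCGG, the AP-1 motif TGANTCA, the TATA motif TATAAA and the CCAAT motif.
Cav1 (chr6:17306085-17306334, plus strand): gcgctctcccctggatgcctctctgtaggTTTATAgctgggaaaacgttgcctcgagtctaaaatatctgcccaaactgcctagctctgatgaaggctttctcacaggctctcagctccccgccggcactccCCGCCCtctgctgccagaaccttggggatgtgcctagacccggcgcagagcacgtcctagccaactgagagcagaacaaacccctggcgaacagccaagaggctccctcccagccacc
Cav2 (chr6:17280935-17281184, plus strand): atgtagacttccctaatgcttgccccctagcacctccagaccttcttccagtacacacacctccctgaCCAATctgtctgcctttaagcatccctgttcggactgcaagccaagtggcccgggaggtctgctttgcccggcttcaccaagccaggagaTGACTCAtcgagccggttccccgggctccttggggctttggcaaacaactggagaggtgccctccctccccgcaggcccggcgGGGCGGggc
Cavin4 (chr4:48663264-48663513, plus strand): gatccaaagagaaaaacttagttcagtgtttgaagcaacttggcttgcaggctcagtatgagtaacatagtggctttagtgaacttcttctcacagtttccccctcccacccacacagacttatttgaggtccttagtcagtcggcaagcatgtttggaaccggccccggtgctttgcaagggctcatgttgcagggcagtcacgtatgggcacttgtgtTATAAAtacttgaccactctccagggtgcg
Cavin1 (chr11:100970618-100970867, minus strand): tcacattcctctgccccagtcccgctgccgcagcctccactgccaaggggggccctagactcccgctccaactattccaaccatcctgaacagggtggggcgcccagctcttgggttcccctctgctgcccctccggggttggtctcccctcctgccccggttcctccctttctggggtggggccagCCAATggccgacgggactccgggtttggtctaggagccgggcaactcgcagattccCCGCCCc
Cav2 had the AP-1 motif 92 bases before its start, a match found in 6.87% of 27025 promoters of this length. The Cav1 window had no such match, and neither did those of Cavin4 and Cavin1. Cav1, Cav2 and Cavin1 each had 1 GC box, which 32.9% of promoters had. Cavin4 had a TATA motif 30 bases before its start. That motif was found in 13.0% of promoters, and the Cav1 match, 221 bases before the start, was on the opposite strand. The CCAAT motif, found in 34.5% of promoters, was present in Cav2 and Cavin1. The E-box CANNTG, found in 66.0% and not capitalised, had 1 match in Cav1, 2 in Cav2 and 1 in Cavin4. None of the 4 capitalised motifs was present in all 3 genes that fell. The E-box was, with 0 matches in Cavin1, but it is the motif that most promoters had. Of the windows not printed, that of Cavin2, which was not called, had 0 E-boxes and that of the undetected Cav3 had 2. Cav1 had a second listed start with none of the 4 capitalised motifs before it and 1 E-box. Gene counts do not separate transcripts from the 2 starts. A match describes letters and not a bound site.

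Cav2 and Cav1 are neighbours on chromosome 6, read in the same direction and 17.2 kb apart, so the genes around them were also examined. The nearest tested gene before the pair is Tes, a focal adhesion protein, and the nearest after it is Met, the receptor of hepatocyte growth factor. Tes fell from 243 ± 5.47 to 210.5 ± 0.617 CPM (SD over 3 libraries each), or -0.21 ± 0.04 (SE) on the log2 scale (adjusted p = 2.57e-05 by edgeR). Met fell from 215 ± 5.12 to 174 ± 5.44 CPM (SD over 3 libraries each), or -0.30 ± 0.04 (SE) on the log2 scale (adjusted p = 1.12e-07 by edgeR). In both neighbours every phillyrin library lay below every OGD/R library. The next tested genes beyond Met were Capza2, an actin-capping protein subunit, at 366 ± 5.85 and 376 ± 10.8 CPM (log2 fold change 0.04, SE 0.03, adjusted p = 0.464 by edgeR), and St7 (log2 fold change 0.09, SE 0.09, adjusted p = 0.471 by edgeR). Capza2 and St7 were chosen after their values were seen.

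**Figure D3:**
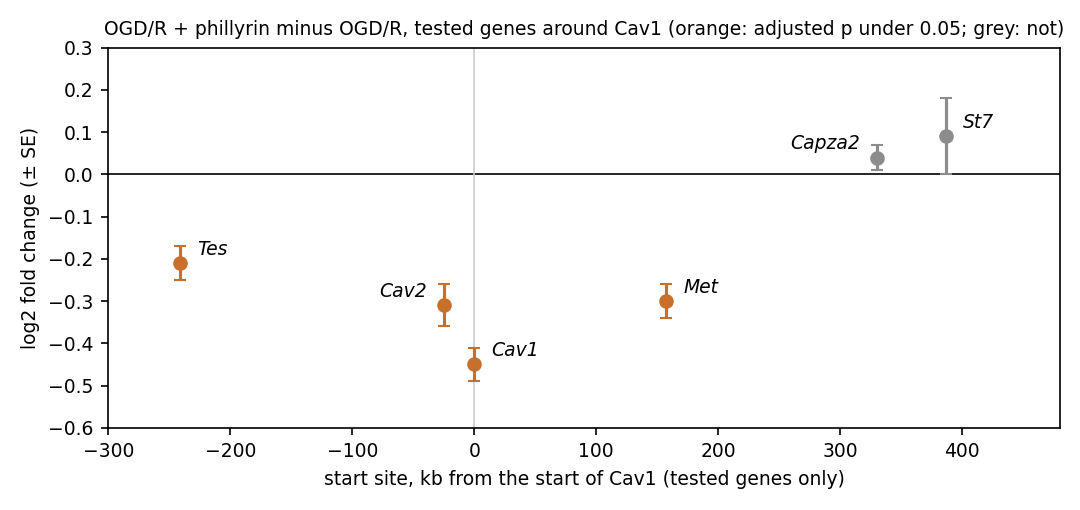
Log2 fold change (± SE) of the tested genes around Cav1, by the distance of their start from the start of Cav1 in kb, with called genes in orange and others in grey. Tes, Cav2, Cav1 and Met lie between -0.45 and -0.21, and Capza2 and St7 at 0.04 and 0.09.

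The nearest tested neighbours of the cavins were called higher or not called. Tmeff1, which ends 0.382 kb before Cavin4 on the same strand, rose from 33.9 ± 1.16 to 47.0 ± 0.366 CPM (SD over 3 libraries each), or 0.47 ± 0.06 (SE) on the log2 scale (adjusted p = 3.09e-07 by edgeR), while Cavin4 fell. Mrpl50, the nearest tested gene on the other side of Cavin4 but 839 kb away, had a log2 fold change of 0.01 (SE 0.05). Stat3, the transcription factor gene next to Cavin1 at lower coordinates, rose (log2 fold change 0.27, SE 0.05, adjusted p = 3.60e-05 by edgeR). Atp6v0a1, next to Cavin1 at higher coordinates, stood at -0.12 (SE 0.06). Tmeff2 and Nabp1, on either side of Cavin2, rose by 0.75 (SE 0.21, adjusted p = 0.00507 by edgeR) and 0.20 (SE 0.05, adjusted p = 0.000673 by edgeR). Fhip1b and Smpd1, around Cavin3, stood at -0.09 (SE 0.07) and -0.07 (SE 0.09). Around the silent Cav3, Lmcd1 was below 1 CPM and Rad18 stood at 67.4 ± 0.952 and 67.6 ± 1.44 CPM (SD, n = 3 each).

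Genes for the neck of the caveola and its link to actin went in both directions. Of 17 genes on this list, which holds the EHD ATPases, pacsins, dynamins, filamins and the Abl kinases, 15 were tested, 5 fell and 2 rose. The share called was 46.7% (31.7% over all genes) and the median log2 fold change -0.07. Pacsin3, the muscle pacsin, a membrane-bending F-BAR protein, fell most, from 25.8 ± 1.35 to 19.6 ± 0.719 CPM (SD over 3 libraries each), or -0.39 ± 0.08 (SE) on the log2 scale (adjusted p = 0.000276 by edgeR). Its broadly expressed relative Pacsin2, which shapes the caveolar neck, stood at 493, 488 and 489 CPM in OGD/R and at 518, 520 and 540.1 CPM with phillyrin. Pacsin2 was thus higher in every phillyrin library (log2 fold change 0.10, SE 0.03, adjusted p = 0.0164 by edgeR), but not past the threshold without OGD/R replicate 2 (adjusted p = 0.0818 by edgeR) or OGD/R replicate 3 (0.0755). Pacsin1, the neuronal form, had 4 counts in all.

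Filamins tie caveolae to actin stress fibres. Flnc, the muscle filamin, stood at 664, 615 and 630 CPM in OGD/R and at 503, 510 and 485 CPM with phillyrin. It fell in every phillyrin library (log2 fold change -0.35, SE 0.03, adjusted p = 3.21e-10 by edgeR). Flna, the most abundant of the list, stood at 3069 ± 35.4 and 3248 ± 19.5 CPM (SD, n = 3 each). Its call as higher (log2 fold change 0.08, SE 0.03, adjusted p = 0.0397 by edgeR) was lost without OGD/R replicate 1 (0.0848), OGD/R replicate 2 (0.194), OGD/R replicate 3 (0.145) or phillyrin replicate 2 (0.0564). Scaled by library size only, 0 genes of the list rose and 6 fell.

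Ehd2, the ATPase that rings the caveolar neck and holds it at the surface, stood at 368, 367 and 362 CPM in OGD/R and at 338, 366 and 343 CPM with phillyrin. The groups overlapped at phillyrin replicate 2, and Ehd2 was not called (log2 fold change -0.07, SE 0.04, adjusted p = 0.161 by edgeR). Without phillyrin replicate 2 it was (adjusted p = 0.0475 by edgeR). Cavin1 showed the same overlap at the same library. Ehd4 fell (log2 fold change -0.18, SE 0.04, adjusted p = 0.000384 by edgeR), and Ehd1 and Ehd3 stood at 0.02 (SE 0.04) and -0.22 (SE 0.13). Of the tyrosine kinases that act on caveolae and stress fibres, Abl2 fell (log2 fold change -0.24, SE 0.04, adjusted p = 9.95e-06 by edgeR) and Abl1 stood at -0.01 (SE 0.04). The dynamins Dnm1, Dnm2 and Dnm3, GTPases of vesicle scission, stood at -0.08, 0.10 and 0.04, and the formin Diaph1 at 0.05. Dnm2 was called higher without phillyrin replicate 1 (adjusted p = 0.0204 by edgeR). Ror1, a receptor described as a scaffold for Cav1 and Cavin1, had 0 counts.

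Most of the tested flotillins and their relatives, scaffolds of membrane domains that do not depend on caveolins, were not called. Of 10 on the list 9 were tested, 2 rose, 0 fell and 7 were not called, with a median of -0.03. The share called was 22.2%, against 31.7% over all genes (15.6% lower and 16.0% higher). With 9 genes tested, nothing is inferred from the 0 that fell. Stom, stomatin, stood at 173, 171 and 174 CPM in OGD/R and at 201, 212 and 213 CPM with phillyrin. It rose in every phillyrin library (log2 fold change 0.27, SE 0.04, adjusted p = 6.14e-07 by edgeR). Erlin1, its relative in the endoplasmic reticulum, went up from 77.1 ± 1.46 to 89.4 ± 1.52 CPM (SD, n = 3 each; adjusted p = 0.000923 by edgeR). Flot1 stood at -0.05 (SE 0.07) and Flot2 at 0.13 (SE 0.05) on the log2 scale, and Flot2 passed without phillyrin replicate 3 (adjusted p = 0.0368 by edgeR). Stoml1 stood at -0.19 (SE 0.10), and Stoml2, Phb, Phb2 and Erlin2 between -0.05 and -0.02. Among the genes not called, Stoml1 was lower and Flot2 higher in every phillyrin library.

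**Figure D4:**
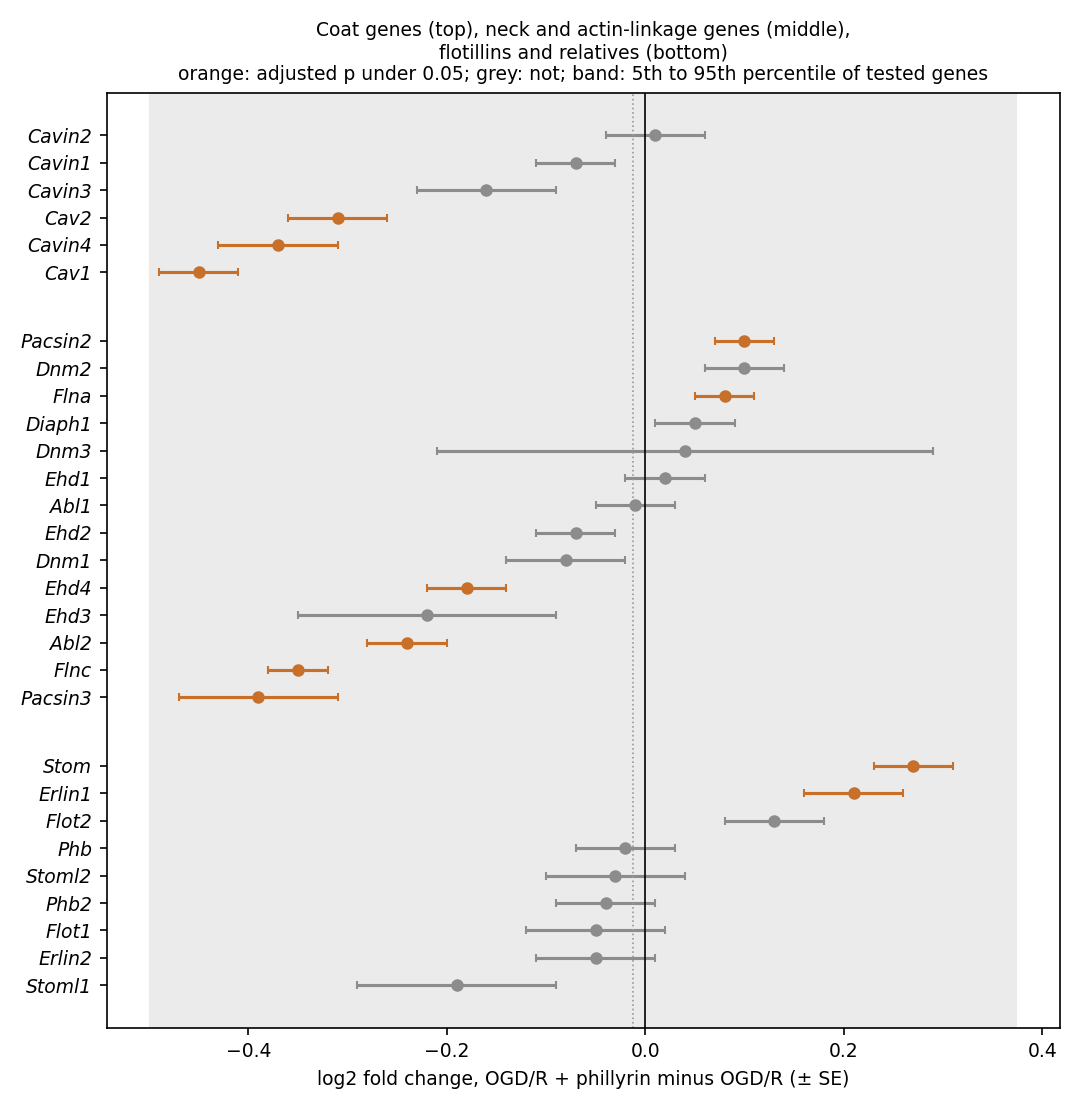
Log2 fold change (± SE) of tested coat genes (top), 14 of the 15 tested neck and actin-linkage genes (middle) and flotillins and relatives (bottom), with called genes in orange, others in grey and the 5th to 95th percentile of all tested genes as a band (-0.50 to 0.37). Cav1, Cavin4, Cav2, Pacsin3 and Flnc are the 5 genes at or below -0.31, and Stom is the highest at 0.27.

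On a list written for the T-tubule and for membrane repair, in which Cav3 and Cavin4 act in muscle, more genes fell than rose. Of 19 on the list 17 were tested, 7 fell and 1 rose, with a median of -0.13. The share called was 47.1%, against 31.7% over all genes (15.6% lower and 16.0% higher). The deposited annotation term T-tubule was closer to even, with 8 higher and 11 lower of 41 tested (46.3% called, median -0.07). Under the term sarcolemma 13 of 91 tested rose and 27 fell (44.0% called, median -0.07). The annexins Anxa1, Anxa2 and Anxa6, calcium-dependent membrane-binding proteins, fell. Anxa2 stood at 1628 ± 19.6 and 1392 ± 56.7 CPM (SD over 3 libraries each), or -0.23 ± 0.03 (SE) on the log2 scale (adjusted p = 1.31e-06 by edgeR). Myof, myoferlin, stood at 934, 927 and 939.6 CPM in OGD/R and at 782, 778 and 799 CPM with phillyrin (log2 fold change -0.25, SE 0.03, adjusted p = 1.00e-07 by edgeR). Bin1, the amphiphysin that bends T-tubules, fell (log2 fold change -0.13, SE 0.04, adjusted p = 0.0102 by edgeR), a call lost without OGD/R replicate 2 (0.0516) or phillyrin replicate 3 (0.0689). Popdc3, of a family of cAMP-binding membrane proteins, fell as well (log2 fold change -0.13, SE 0.04, adjusted p = 0.0104 by edgeR), a call lost without OGD/R replicate 3 (0.0502) or phillyrin replicate 1 (0.0787). Jph2, a junctophilin, was the seventh that fell (log2 fold change -0.16, SE 0.06, adjusted p = 0.0310 by edgeR), and Mtm1, the phosphatase myotubularin, the gene that rose (0.24, SE 0.08, adjusted p = 0.0183 by edgeR). With library size as the only scaling, 11 genes of the list fell and 0 rose. Trim72 and Capn3, also on the list, had 17 and 21 counts over the 6 libraries and were not tested. Dysf was low, at 4.94 ± 0.634 and 4.34 ± 0.558 CPM (SD, n = 3 each), and was not called (log2 fold change -0.17, SE 0.17, adjusted p = 0.491 by edgeR).

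Lipid supply for caveolae, which are rich in cholesterol, sphingomyelin and phosphatidylserine, was tested for 21 of 22 genes, of which 7 fell and 3 rose (47.6% called, against 31.7% over all genes, and a median of -0.03). Stard4, a sterol carrier, fell (log2 fold change -0.47, SE 0.07, adjusted p = 8.13e-07 by edgeR), and so did the sphingomyelin synthase Sgms2 (-0.25, SE 0.04, adjusted p = 3.80e-05 by edgeR) and the lipid kinase Pip5k1a (-0.19, SE 0.04, adjusted p = 0.000302 by edgeR). Npc2, the lysosomal cholesterol carrier, rose from 423 ± 9.04 to 503 ± 23.1 CPM (SD, n = 3 each; adjusted p = 7.00e-07 by edgeR), as did Pip5k1c (log2 fold change 0.27, SE 0.05, adjusted p = 6.85e-05 by edgeR). The phosphatidylserine synthases Ptdss1 and Ptdss2 stood at 0.09 (SE 0.07) and 0.18 (SE 0.08) and were not called.

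Receptors, kinases and pumps described in caveolae had more members that rose than fell, 7 against 4 of 25 tested (44.0% called, median -0.03; over all genes 31.7% were called, 16.0% higher and 15.6% lower), but with library size as the only scaling 5 members rose and 7 fell. Prkca, protein kinase C alpha, rose from 103 ± 2.00 to 137 ± 5.29 CPM (SD over 3 libraries each), or 0.41 ± 0.04 (SE) on the log2 scale (adjusted p = 1.88e-09 by edgeR). The Src-family kinase Fyn and the receptor Bmpr2 rose by 0.34 (SE 0.04, adjusted p = 4.17e-09 by edgeR) and 0.32 (SE 0.04, adjusted p = 1.93e-08 by edgeR) on the log2 scale. Pdgfra, a growth factor receptor that is also on the fibroblast list, fell from 19.3 ± 0.697 to 11.5 ± 0.675 CPM (SD, n = 3 each; adjusted p = 1.51e-07 by edgeR), and Adcy6, an adenylyl cyclase, and Tgfbr2 fell by 0.35 (SE 0.06, adjusted p = 6.49e-06 by edgeR) and 0.28 (SE 0.05, adjusted p = 2.14e-05 by edgeR). Nos3, the endothelial nitric oxide synthase that Cav1 binds, had 16 counts over the 6 libraries and Slc2a4, the insulin-sensitive glucose transporter, 6. Cd36, a fatty acid transporter, had 0.

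Other genes listed as partners of the coat proteins, and genes of caveolin turnover, had no common direction. Of 10 partners 2 rose and 1 fell (30.0% called, against 31.7% over all genes): Txnrd1, thioredoxin reductase, rose from 954 ± 5.23 to 1219 ± 25.1 CPM (SD, n = 3 each; adjusted p = 3.12e-11 by edgeR), Zfp148 rose by 0.19 (SE 0.04, adjusted p = 0.000544 by edgeR) and Brca1 fell by 0.33 (SE 0.06, adjusted p = 0.000130 by edgeR). Prkcd, the kinase after which Cavin3 was named, stood at 70.7 ± 3.27 and 70.3 ± 2.59 CPM (SD, n = 3 each). Ttf1, the termination factor of RNA polymerase I with which Cavin1 was first found, stood at -0.17 on the log2 scale (SE 0.07, adjusted p = 0.0707 by edgeR). Of 11 turnover genes 3 rose and 2 fell (45.5% called), with changes of at most 0.22 on the log2 scale. These counts take in the palmitoyltransferases Zdhhc5, which rose, Zdhhc21, which fell, and Zdhhc7, which was not called. The list also includes Vcp, the ATPase that extracts ubiquitinated Cav1 for lysosomal breakdown, which fell (-0.11, SE 0.03, adjusted p = 0.0155 by edgeR). That call was lost when any of the OGD/R libraries (0.0589, 0.0606 and 0.0604) or phillyrin replicate 1 (0.0609) was left out, and between 2 and 5 turnover genes were called over these and the other omissions.

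**Figure D5:**
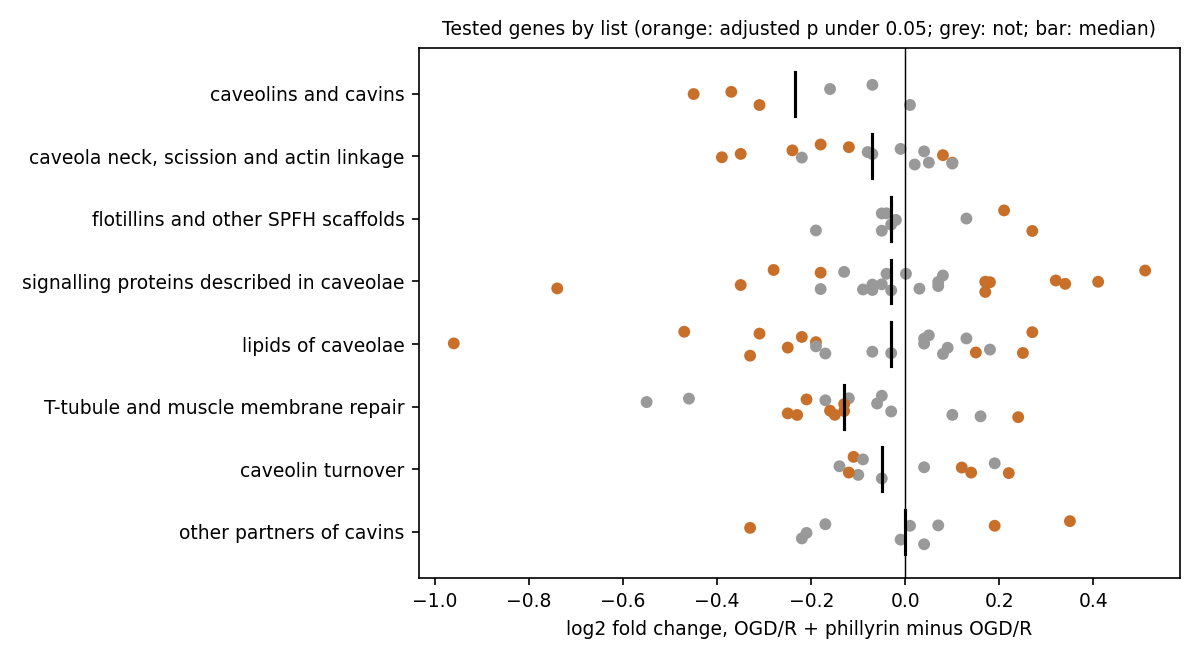
Log2 fold change of tested genes by list, 1 point a gene, with called genes in orange, others in grey and the median of each list as a bar. The coat genes have their median at -0.23 and the T-tubule and repair genes at -0.13, and the other lists between -0.07 and -0.00023.

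Genes whose pattern over the 6 libraries was most like that of each coat gene were sought by Pearson correlation of log2 CPM among 9786 genes. The 6 libraries form 2 groups, so a gene that differs between them correlates with any other that does, and no p is given. Closest to Cav1 were Msmo1, a sterol oxidase (r = 0.9994), Nptx1 (0.9988), Ifit2 (0.9986) and the glycolytic enzyme gene Pfkl (0.9985). Closest to Cav2 were the formin Fhod3 (0.9989), Rusc1 (0.9958), Daam2 (0.9947) and Xrcc3 (0.9938). For Cavin4 they were Klc1 (0.9942), Cmbl (0.9937), Scnm1 (0.9924) and Jarid2 (0.9921). For the coat genes that were not called the closest were Fbxo25 for Cavin1 (0.9872), Btbd9 for Cavin2 (0.9838) and Cfap410 for Cavin3 (0.9937). No coat gene was among the 4 closest of another.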

How the data were processed

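Poly(A) RNA of 6 libraries, 3 a group, gave read pairs of 150 bases, per the labels' protocols. The submitters' processing notes name Trimmomatic 0.39, HISAT2 2.2.1, featureCounts 2.0.3, DESeq2 1.34.0 and build GRCm39. The sources used here do not give the strand setting, the annotation release or the handling of reads with several alignments. None of the 7 genes overlapped another gene of the table. The deposited table holds read counts and FPKM per gene, per the file headers. Columns were matched to libraries by sample title, because the description of all 3 phillyrin samples names the same column. The deposited FPKM equalled count over length and library total to within a relative difference of 2.43e-07.

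The counts were filtered (filterByExpr), scaled by TMM factors and fitted with edgeR's robust quasi-likelihood test over 11658 genes (edgeR 4.0.16, limma 3.58.1, R 4.3.3), with Benjamini-Hochberg adjustment and a threshold of 0.05. SE is the log2 fold change over the root of the F statistic, and CPM uses TMM-scaled library sizes. Likeness used log2 CPM with a prior count of 2. Replicate pairs differed beyond counting noise. Nothing states that libraries came from separate cultures, so their spread may be technical. In simulated data for this comparison (11658 genes) 50 genes were changed at each of the folds 1.25, 1.5, 2 and 3. Of genes changed 1.25-fold 64% were recovered and of those changed 1.5-fold 88%, with 11 of 181 calls false. The share of changed genes was far below the 31.7% called in the real data, so these rates need not hold there.

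The coat genes and all lists were chosen with earlier results of these data known. Named were the 7 genes, all tested neck and flotillin genes, up to 6 genes with the smallest p from each other list, the nearest tested neighbours, and the 4 most similar genes to each coat gene. Other named genes were chosen after their values were seen. Markers were described by level and by the range of their log2 fold changes. Not every gene under this rule is printed, and the results of 2 listed genes are not reported here, though counts and medians of their lists include them. The alternatives replaced the test (DESeq2 1.42.0 or limma-voom), the scaling (RLE or library size alone) or the filter (none, or a mean of at least 1 CPM), added the replicate number as a block, or left out each library in turn.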

Additional observations from a re-analysis of the deposited data

How the results depend on the processing

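The direction and the call of Cav1, Cav2 and Cavin4 held in all 13 alternatives. Over all genes 3694 were called, 1871 higher and 1823 lower, but 1313 and 2455 when libraries were scaled by size only. With that scaling 5 coat genes and 5 listed partners of the coat proteins (2 higher, 3 lower) were called. Among lipid genes that scaling gave 2 higher and 8 lower, and among turnover genes 1 and 3. Leaving out each library gave 3 to 4 coat genes and 2 to 5 turnover genes called. As CPM, not divided by length, with phillyrin Cavin2 ranked 3, Cavin4 4, Cav2 5 and Cavin3 6. Same-numbered libraries of the groups showed almost no shared deviation (correlations of deviations 0.00278, 0.00561 and 0.00322, against -0.00459 to 0.00126 for differently numbered ones). Such values cannot show whether the samples were prepared as pairs. The replicate block called 3709 genes and the same number of coat genes, 3, and Flna missed the threshold with it (adjusted p = 0.0658 by edgeR).

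Of the log2 fold changes of named genes, 19 values turned sign under an alternative, none of them called. With library size only these were Cavin2 (-0.03), Ehd1 (-0.03), Dnm3 (-0.0027), Rad18 (-0.04) and Mrpl50 (-0.04). Without OGD/R replicate 1 they were Dnm3 (-0.11) and Rad18 (-0.002), without OGD/R replicate 2 Abl1 (0.01) and Rad18 (-0.0042), and without OGD/R replicate 3 Cavin2 (-0.00054). Without phillyrin replicate 1 they were Flot1 (0.02) and Erlin2 (0.01), and without phillyrin replicate 2 Ehd1 (-0.01) and Stoml2 (0.02). Without phillyrin replicate 3 they were Dnm3 (-0.003), Abl1 (0.0049), Rad18 (-0.01), Smpd1 (0.04) and Mrpl50 (-0.03). Over the omissions these values reached 0.13 for Dnm3, -0.08 for Flot1, -0.10 for Stoml2, -0.07 for Erlin2, -0.19 for Smpd1 and 0.05 for Mrpl50 at the other end. A further 29 values lost their call and 12 gained it, and for the changes above the cause was not tested.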

Other observations

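The annotation terms in the deposited table place 93 genes at the caveola, among them all 7 caveolins and cavins, and 67 of these genes were tested. Of the 67, 13 rose and 17 fell (44.8% called, against 31.7% over all genes), with a median log2 fold change of -0.04. The following were chosen after their values were seen. Ptgs2, cyclooxygenase 2, rose from 408 to 593 CPM by the group means (log2 fold change 0.54, SE 0.03, adjusted p = 2.53e-15 by edgeR) and the vitamin D receptor Vdr from 73.1 to 95.4 CPM (0.39, SE 0.05, adjusted p = 9.68e-08 by edgeR). Cdh13, a cadherin without a transmembrane part, rose (0.26, SE 0.04, adjusted p = 1.10e-05 by edgeR), whereas the muscle cadherin Cdh15 fell (-0.36, SE 0.05, adjusted p = 6.88e-08 by edgeR). Hk1, hexokinase, fell from 199 to 143 CPM (-0.48, SE 0.04, adjusted p = 9.12e-12 by edgeR), and Atp1b1, a subunit of the sodium pump, from 14.2 to 9.41 CPM (-0.60, SE 0.11, adjusted p = 7.15e-05 by edgeR), while its relative Atp1b3 rose by 0.12 (SE 0.04, adjusted p = 0.0208 by edgeR) on the log2 scale. The terms caveola and membrane raft overlap. Of 188 tested genes of the latter 38 rose and 40 fell (41.5% called, against 31.7% over all genes), with a median of -0.02.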
